A study of Mus musculus with 2 samples.

Results

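A set of 10 regulators of gene expression in photoreceptors, the light-sensing rods and cones of the retina, was followed across the cell classes of 1 spatial single-nucleus library of mouse retina. Nuclei were isolated on a SeekSpace chip, which records both the RNA and the place of each nucleus. The genes are Crx, Otx2, Nrl, Nr2e3, Rorb, Prdm1, Neurod1, Samd7, Mef2d and Esrrb, taken by gene symbol, and make up 10 of the 32285 features of the deposited matrix. The design text names mice heterozygous for Prph2 C213Y, a missense allele of a structural protein of the outer segment, on C57BL/6J, and wild-type controls of like age and sex, with spatial data at 6 months. The library, T1, has no genotype, so no genotypes were compared and none was inferred. The labels describe 1 fresh-frozen section, 10 micrometres thick, of 1 untreated eye. The nuclei lay in 4 separate rings on the chip, and no source used here says whether these are from 1 animal or several. There are no labelled replicates, and every interval below covers counting error only.

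Photoreceptors arise from retinal progenitors under a cascade of transcription factors. Otx2 commits cells to the photoreceptor and bipolar lineages and also acts in the retinal pigment epithelium (RPE), while Crx, a related homeodomain protein that binds the same core sequence, switches on the genes of mature rods and cones. Rorb, a nuclear receptor, acts before Nrl, the basic leucine zipper protein that decides for rod over cone, and Nrl activates Nr2e3, a nuclear receptor that keeps cone genes off in rods. Neurod1 is a basic helix-loop-helix protein, Prdm1 a zinc-finger repressor that blocks the bipolar fate in young photoreceptors, Samd7 a polycomb-associated repressor of non-rod genes, Mef2d a broadly expressed MADS-box factor that works with Crx, and Esrrb an estrogen-related receptor of rods.

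The 250 bases before an annotated start are shown for 5 of the genes, because Crx marked both photoreceptor classes below, Nrl, Nr2e3 and Samd7 leaned to rods and Prdm1 leaned to cones. Sequences and starts are RefSeq's, on GRCm38.p6, the assembly that mm10 names. All 10 genes matched by symbol, with 15 windows. Each sequence runs 5′ to 3′ on the gene's strand. Capitals mark the homeodomain core TAATC or the longer TAATCC that contains it, TGCTGA of the Maf family to which Nrl belongs, and the nuclear receptor core AGGTCA, on either strand.
Crx, chr7:15879956-15880205, minus strand: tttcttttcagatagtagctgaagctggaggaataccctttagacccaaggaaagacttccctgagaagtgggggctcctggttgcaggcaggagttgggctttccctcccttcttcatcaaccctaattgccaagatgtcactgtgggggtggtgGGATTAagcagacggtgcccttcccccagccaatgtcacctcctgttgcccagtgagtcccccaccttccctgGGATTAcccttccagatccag
Nrl, chr14:55524253-55524502, minus strand: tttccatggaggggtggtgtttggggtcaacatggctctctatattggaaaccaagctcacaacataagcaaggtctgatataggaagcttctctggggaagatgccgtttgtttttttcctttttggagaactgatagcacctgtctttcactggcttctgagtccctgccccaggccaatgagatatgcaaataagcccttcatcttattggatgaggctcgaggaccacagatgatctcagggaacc
Nr2e3, chr9:59950080-59950329, minus strand: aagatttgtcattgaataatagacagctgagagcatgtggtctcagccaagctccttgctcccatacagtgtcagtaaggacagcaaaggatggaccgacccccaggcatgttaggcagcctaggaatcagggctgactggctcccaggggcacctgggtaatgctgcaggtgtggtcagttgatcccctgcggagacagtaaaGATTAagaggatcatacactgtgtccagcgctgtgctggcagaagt
Samd7, chr3:30746043-30746292, plus strand: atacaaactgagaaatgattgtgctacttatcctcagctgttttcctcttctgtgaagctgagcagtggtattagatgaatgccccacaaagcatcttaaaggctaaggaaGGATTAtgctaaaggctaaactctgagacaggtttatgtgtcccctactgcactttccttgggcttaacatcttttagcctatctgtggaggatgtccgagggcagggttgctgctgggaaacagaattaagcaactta
Prdm1, chr10:44458749-44458998, minus strand: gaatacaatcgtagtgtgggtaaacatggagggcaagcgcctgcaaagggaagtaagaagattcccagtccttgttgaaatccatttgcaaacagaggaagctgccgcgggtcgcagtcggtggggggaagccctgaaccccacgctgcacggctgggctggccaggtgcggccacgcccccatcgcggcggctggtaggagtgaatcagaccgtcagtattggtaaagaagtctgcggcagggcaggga

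The Crx window held TAATCC 2 times, both on the opposite strand as GGATTA, with the last base 16 and 89 bases before the start. Samd7 held it 1 time, 134 bases before the start, and Nr2e3 held the shorter TAATC, as GATTA, 42 bases before the start. Of the 32851 windows of this length in the RefSeq table, 19.8% held TAATC, 6.25% TAATCC, 16.1% TGCTGA and 14.0% AGGTCA. Of the 15 windows of the 10 genes, 5 held TAATC. Counted by gene, which gives those with several windows more chances, 5 held TAATC in at least 1 window (Crx, Otx2, Nr2e3, Rorb and Samd7), 3 held TAATCC (Crx, Otx2 and Samd7), 4 held TGCTGA (Otx2, Rorb, Neurod1 and Mef2d) and 0 held AGGTCA. The windows of Nrl and Prdm1 held none of the 4. A match is a string of letters and not a measured site, and the data here hold no binding measurement. The windows of Nrl, Nr2e3 and Prdm1 lie inside the annotated gene spans, which reach further upstream.

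On GRCm38.p6, RefSeq places Crx (ENSMUSG00000041578) on chromosome 7 from 15865947 to 15879955, Otx2 (ENSMUSG00000021848) on chromosome 14 from 48656781 to 48667644, and Nrl (ENSMUSG00000040632) on chromosome 14 from 55518978 to 55524981. Nr2e3 (ENSMUSG00000032292) lies on chromosome 9 from 59942771 to 59960834, Rorb (ENSMUSG00000036192) on chromosome 19 from 18930609 to 19111196, and Prdm1 (ENSMUSG00000038151) on chromosome 10 from 44437174 to 44528558. Neurod1 (ENSMUSG00000034701) lies on chromosome 2 from 79452637 to 79456636, and Esrrb (ENSMUSG00000021255) on chromosome 12 from 86361117 to 86521628. Samd7 (ENSMUSG00000051860) and Mef2d (ENSMUSG00000001419) share chromosome 3, from 30746293 to 30767174 and from 88141941 to 88172091. All 10 are protein coding.

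The matrix held 55843593 UMIs, which count single RNA molecules, over 17285 barcodes. The 16867 nuclei kept had a median of 1811 UMIs, and together the 10 genes gave 120341 UMIs. Of 38 clusters, 34 were named by markers that did not include the 10 genes, as 18 classes called "X-like". Rod-like nuclei numbered 5866 in 5 clusters, cone-like 646 in 1, bipolar-like 1586 in 5 and RPE-like 657 in 2. On the chip they formed 4 rings (pieces 1 to 4, of 4346, 4256, 3695 and 4570 nuclei), although 1 section of 1 eye is described. The transcript Xist, in rod-like nuclei of the retinal band, stood at 54.8, 29.1, 33.2 and 955 CPM in pieces 1 to 4, so piece 4 stood apart from the rest. In RPE-like nuclei Xist stood at 9.16, 0, 3.01 and 1111 CPM. Rod-like nuclei outside the RPE ring, given below, did not show this split. Separate pieces are not mentioned in the sources used here, and the labels assign none of them to a group. From which animals the pieces came was not tested.

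Of the 10 genes, 7 were highest in rod-like or cone-like nuclei. Crx, Neurod1, Mef2d and, with overlapping intervals, Nrl were highest in cone-like nuclei, and Nr2e3, Samd7 and Esrrb in rod-like nuclei. Among all 18423 features with at least 20 UMIs, 15.0% were highest in either class. The other 3 were Otx2 (RPE-like), Rorb (horizontal-like) and Prdm1 (surface epithelium-like, with an interval that overlapped the cone-like one). Levels are pooled CPM, counts per 1000000 UMIs of a class, with exact Poisson 95% intervals. They are compared between classes for 1 gene at a time, since gene length was not taken into account.

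**Figure D1:**
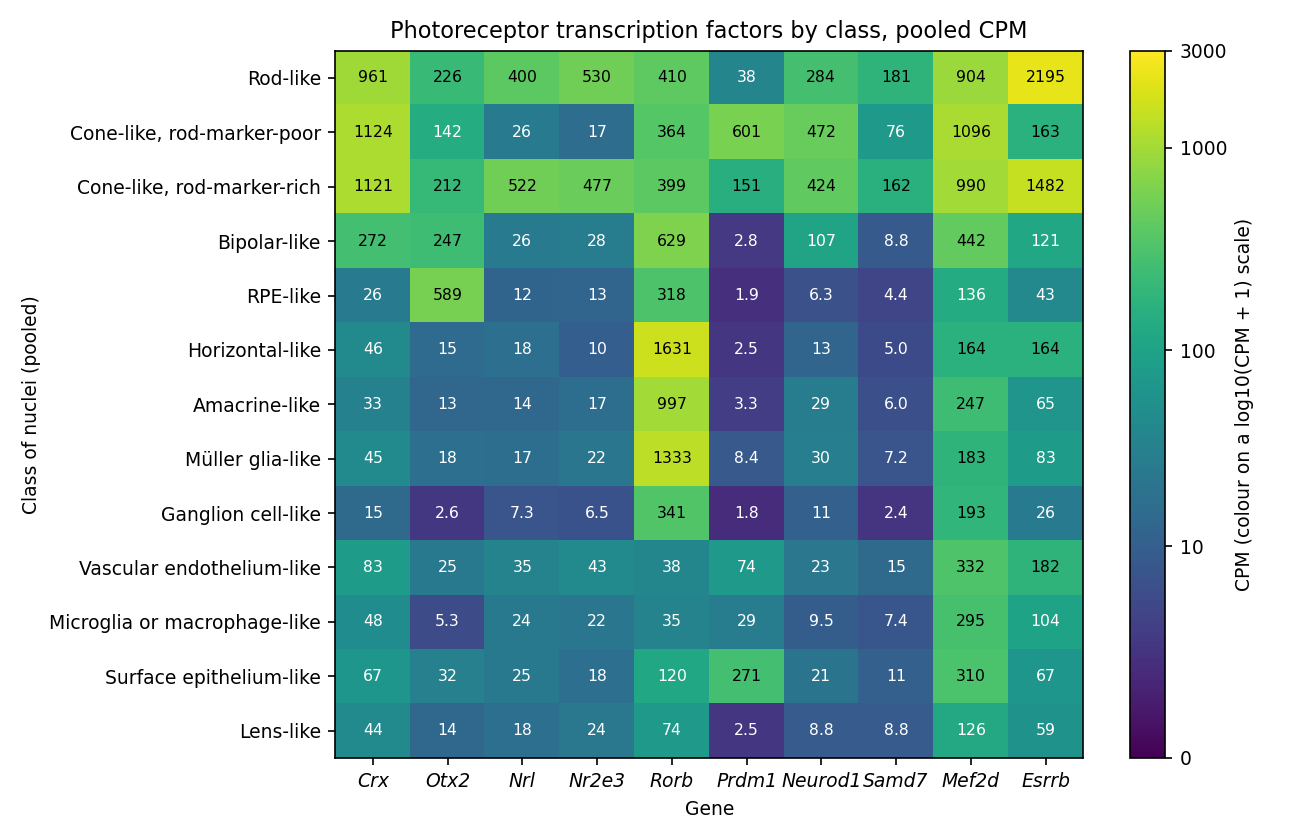
Pooled CPM of the 10 genes (columns) in 13 sets of nuclei (rows), with colour on a log10(CPM + 1) scale and the CPM printed in each field. Cone-like nuclei are split by their share of rod-marker UMIs. The photoreceptor rows lead for most genes, with Otx2 highest in RPE-like nuclei (589 CPM) and Rorb highest in horizontal-like nuclei (1631 CPM).

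Crx marked both photoreceptor classes and, at a lower level, bipolar cells. It stood at 961 CPM (939.9 to 982) in rod-like, 1122 CPM (1086 to 1159) in cone-like and 272 CPM (258 to 286) in bipolar-like nuclei. Outside these it lay at 82.7 CPM in vascular endothelium-like, 33.1 CPM in amacrine-like, 25.8 CPM in RPE-like and 14.7 CPM in ganglion cell-like nuclei. The order cone-like, rod-like, bipolar-like had intervals that did not overlap, while those of vascular endothelium-like and surface epithelium-like nuclei (67.0 CPM), the next in line, did. At least 1 Crx UMI was found in 63.2% of rod-like nuclei (median depth 1058 UMIs) and in 7.29% of ganglion cell-like nuclei (median depth 8149 UMIs), where Crx is not known to act. With each nucleus thinned to 500 UMIs the shares were 37.4% and 0.756%, and 40.0% in cone-like and 11.9% in bipolar-like nuclei. Shallower nuclei left out of the thinned shares numbered 244 of the rod-like, 11 of the cone-like, 28 of the bipolar-like and 1 of the ganglion cell-like.

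Otx2 had its highest level outside the neural retina. RPE-like nuclei held 589 CPM (564 to 615), 2.38 times (2.22 to 2.55) the 247 CPM (234 to 261) of bipolar-like nuclei and 2.60 times (2.45 to 2.77) the 226 CPM (216 to 237) of rod-like nuclei. The intervals of bipolar-like and rod-like nuclei overlapped. Cone-like nuclei held 195 CPM (179.9 to 211), and amacrine-like, Müller glia-like and ganglion cell-like nuclei 12.9, 17.5 and 2.65 CPM. The name class-high was given where 1 class stood clear: the lower end of its interval had to reach 2 times the upper end in each of the rest. Otx2 was the 1 of the 10 genes called, against 10.4% of the 18423 features. It was no longer called after thinning each nucleus to 500 UMIs, nor with 3 times in place of 2. RPE-like cluster 4 (295 nuclei) stood at 467 CPM (405 to 535) and RPE-like cluster 32 (362 nuclei) at 606 CPM (579 to 633). Both were above bipolar-like nuclei, but their intervals did not overlap each other. In pieces 1 to 4 the RPE-like level was 532, 581, 606 and 627 CPM.

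Rorb was present in every class of the neural retina and was not led by photoreceptors. Horizontal-like nuclei held 1631 CPM (1508 to 1762), Müller glia-like 1333 CPM (1278 to 1389.6), amacrine-like 997 CPM (978 to 1016) and bipolar-like 629 CPM (608 to 651), and no neighbours in this order had overlapping intervals. Rod-like nuclei held 410.1 CPM (396 to 424) and cone-like 391 CPM (369 to 413), with intervals that overlapped. Ganglion cell-like nuclei held 341 CPM, RPE-like 318 CPM, vascular endothelium-like 38.4 CPM and lens-like 74.5 CPM. Müller glia-like nuclei were at 3.25 times (3.08 to 3.43) and amacrine-like nuclei at 2.43 times (2.34 to 2.53) the rod-like level. The horizontal-like level rests on 54 nuclei, all 54 of which had a Rorb UMI.

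Neurod1 was highest in cone-like nuclei, at 436 CPM (413 to 459), followed by rod-like nuclei at 284 CPM (273 to 296) and bipolar-like nuclei at 107 CPM (98.4 to 116). The cone-like level was 1.53 times (1.44 to 1.64) the rod-like one. In RPE-like, ganglion cell-like and amacrine-like nuclei it lay at 6.31, 10.6 and 29.2 CPM. Mef2d was found in every class, from 126 CPM in lens-like to 1016 CPM (981 to 1051) in cone-like and 904 CPM (883 to 924) in rod-like nuclei, with 442 CPM (424 to 460.3) in bipolar-like nuclei.

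Nrl, Nr2e3, Samd7 and Esrrb, known for their part in rods, are called the 4 rod genes below. Nrl stood at 399.9 CPM (386 to 414) in rod-like nuclei, Nr2e3 at 529.6 CPM (514 to 545), Samd7 at 181 CPM (172 to 189.9) and Esrrb at 2195 CPM (2164 to 2227). In bipolar-like nuclei the same genes stood at 26.4, 27.9, 8.79 and 121 CPM, and the rod-like levels were 15.2 to 20.5 times these. The cone-like nuclei taken whole held 0.530 (Esrrb) to 1.00 (Nrl) times the rod-like level, with 402 CPM (380.2 to 424) for Nrl, 365 CPM (345 to 387) for Nr2e3, 141 CPM (128 to 154) for Samd7 and 1163 CPM (1126 to 1200.4) for Esrrb. A gene counted as higher in 1 of the photoreceptor classes when its ratio was at least 2 with an exact binomial interval that left out 1. By that rule 0 of the 10 genes were higher in rod-like than in all cone-like nuclei, against 2.89% of 12380 features with 20 UMIs over both. In the other direction 1 gene was higher, Prdm1, against 7.85% of features. Otx2, not among the 4, stood in rod-like nuclei at 1.16 times (1.06 to 1.27) the level of all cone-like nuclei.

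The cone-like nuclei were not uniform, and the levels of Nrl and Nr2e3 in them went up with their rod markers. Cone-like nuclei were taken from 1 cluster led by Arr3, Opn1mw, Opn1sw and Pde6c, the cone arrestin, cone opsins and cone phosphodiesterase. Of the 646, 350 (54.2%) had under 1% of their UMIs from the 12 rod markers, a cut set after seeing the data, and 296 had more; 115 lay within 0.25 percentage points of the cut. The rod-marker-poor nuclei had a median of 2193 UMIs, 0.529% rod-marker UMIs and 2.25% UMIs from the 12 cone markers. The rod-marker-rich ones had 3782 UMIs, 2.56% and 0.761%. The 12 rod markers summed to 5498 CPM in the poor, 43054 CPM in the rich and 30383 CPM in rod-like nuclei.

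Rod-marker-rich nuclei held 75.8% of all cone-like UMIs, so that they set most of the pooled cone-like level. Their 5 deepest nuclei held 18.5% of the cone-like UMIs, 1 of them with 291939 UMIs. Without those 5, Nrl in all cone-like nuclei was at 372 CPM and Esrrb at 1016 CPM. Scrublet, a doublet caller, marked 0 nuclei and is taken as not having worked. Of the rich nuclei 30, and of the poor 14, were among the 5% of all nuclei with the highest Scrublet scores. In the retinal band the median depth below the RPE ring was 82.5 coordinate units for poor, 95.7 for rich and 155 for rod-like nuclei. The part that mixed nuclei or free RNA plays in the rich nuclei was not tested.

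**Figure D2:**
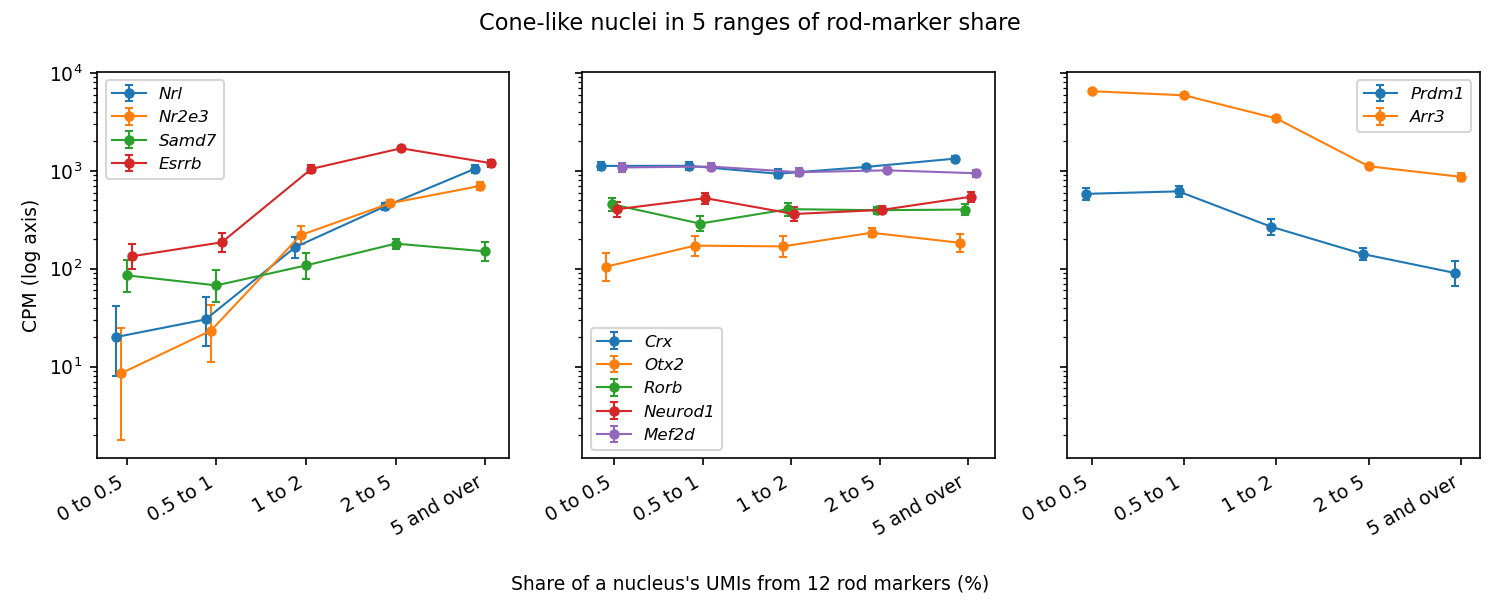
Pooled CPM (log axis) in cone-like nuclei grouped by the share of their UMIs from 12 rod markers, with exact Poisson 95% intervals; lines join the 5 ranges. Nrl runs from 20 to 1046 CPM and Prdm1 from 582 to 90.2 CPM, while Crx lies between 934 and 1332 CPM. Arr3, a cone marker, is drawn for reference.

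Across 5 ranges of rod-marker share, from under 0.5% (159 nuclei) through 0.5 to 1% (191), 1 to 2% (102) and 2 to 5% (113) to 5% and over (81), Nrl stood at 20, 30.3, 166, 433 and 1046 CPM. Nr2e3 stood at 8.55, 23.3, 220.1, 467 and 701 CPM. Esrrb stood at 134, 186, 1047, 1700.5 and 1199 CPM. Samd7 stood at 85.5, 67.5, 108, 180.4 and 150.3 CPM. Nrl and Nr2e3 were thus higher in each range than in the one before, while Esrrb was lower again in the last and Samd7 went up less and not in every step. Prdm1 went the other way, at 582, 617, 269, 141 and 90.2 CPM, as did the cone marker Arr3, at 6512, 5918, 3432, 1114 and 868 CPM. Crx stayed between 934 and 1332 CPM, Mef2d between 945 and 1106 CPM and Neurod1 between 362 and 543 CPM. Levels of genes that go with rod markers are not independent of a grouping made on those markers, so this is a description.

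With the rod-marker-poor nuclei as the cone class, rods and cones separated on the 4 rod genes. Rod-like nuclei then held Nrl at 15.6 times (10.1 to 25.6), Nr2e3 at 31.8 times (18.6 to 59.7), Esrrb at 13.5 times (11.3 to 16.2) and Samd7 at 2.39 times (1.84 to 3.15) the cone level. That is 4 of 10 genes past the rule, against 8.57% of 11873 features. The cone levels themselves rested on few UMIs for Nrl (20 UMIs, 25.6 CPM, 15.7 to 39.6) and Nr2e3 (13 UMIs, 16.7 CPM, 8.87 to 28.5). Esrrb was at 163 CPM (136 to 194) and Samd7 at 75.6 CPM (57.6 to 97.6) in them. Samd7 in these cones had an interval above that of amacrine-like nuclei (6.00 CPM, 4.60 to 7.69), while for Nrl the intervals of these cones and of bipolar-like nuclei (26.4 CPM, 22.2 to 31.1) overlapped. The subset was cut on rod markers in the same nuclei, so low levels of rod genes in it are not independent of the cut.

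Prdm1 was the 1 gene higher in rod-marker-poor cones than in rods, against 10.8% of features. In all cone-like nuclei it stood at 260.3 CPM (243 to 279), 6.89 times (6.05 to 7.87) the rod-like level. The rod-marker-rich ones held 151 CPM (136 to 168). In the rod-marker-poor cones, a subset cut on rod markers, it stood at 601 CPM (548 to 658). Rod-like nuclei held 37.8 CPM (33.7 to 42.2), so the ratio to this subset was 15.9 (13.8 to 18.4). At least 1 Prdm1 UMI was found in 60.3% of these cone-like nuclei and in 4.43% of rod-like nuclei, and in 26.1% and 1.67% after thinning to 500 UMIs. Amacrine-like nuclei, with a median of 4503 UMIs, gave 0.850% before thinning. In pieces 1 to 4 the cone level was 616, 527, 646 and 646 CPM, so it was as high in each piece. Outside photoreceptors Prdm1 stood at 271 CPM (214 to 339) in 75 surface epithelium-like nuclei, 73.9 CPM (58.1 to 92.6) in vascular endothelium-like and 28.6 CPM (18.9 to 41.7) in microglia or macrophage-like nuclei, and at 2.81 CPM in bipolar-like nuclei.

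The other 5 genes differed less between rods and rod-marker-poor cones. Crx in these cones was at 1.17 times (1.09 to 1.25), Mef2d at 1.21 times (1.13 to 1.30) and Neurod1 at 1.66 times (1.48 to 1.85) the rod-like level. Otx2 was lower in them, at 142 CPM (117 to 171) or 0.629 times (0.515 to 0.762). For Rorb the ratio was 0.888 (0.784 to 1.00). With this cone class 8 of the 10 genes were highest in a photoreceptor class (17.4% of 18327 features), Prdm1 now among them, and 4 were class-high: Otx2 in RPE-like, and Nrl, Nr2e3 and Esrrb in rod-like nuclei (11.2% of features).

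**Figure D3:**
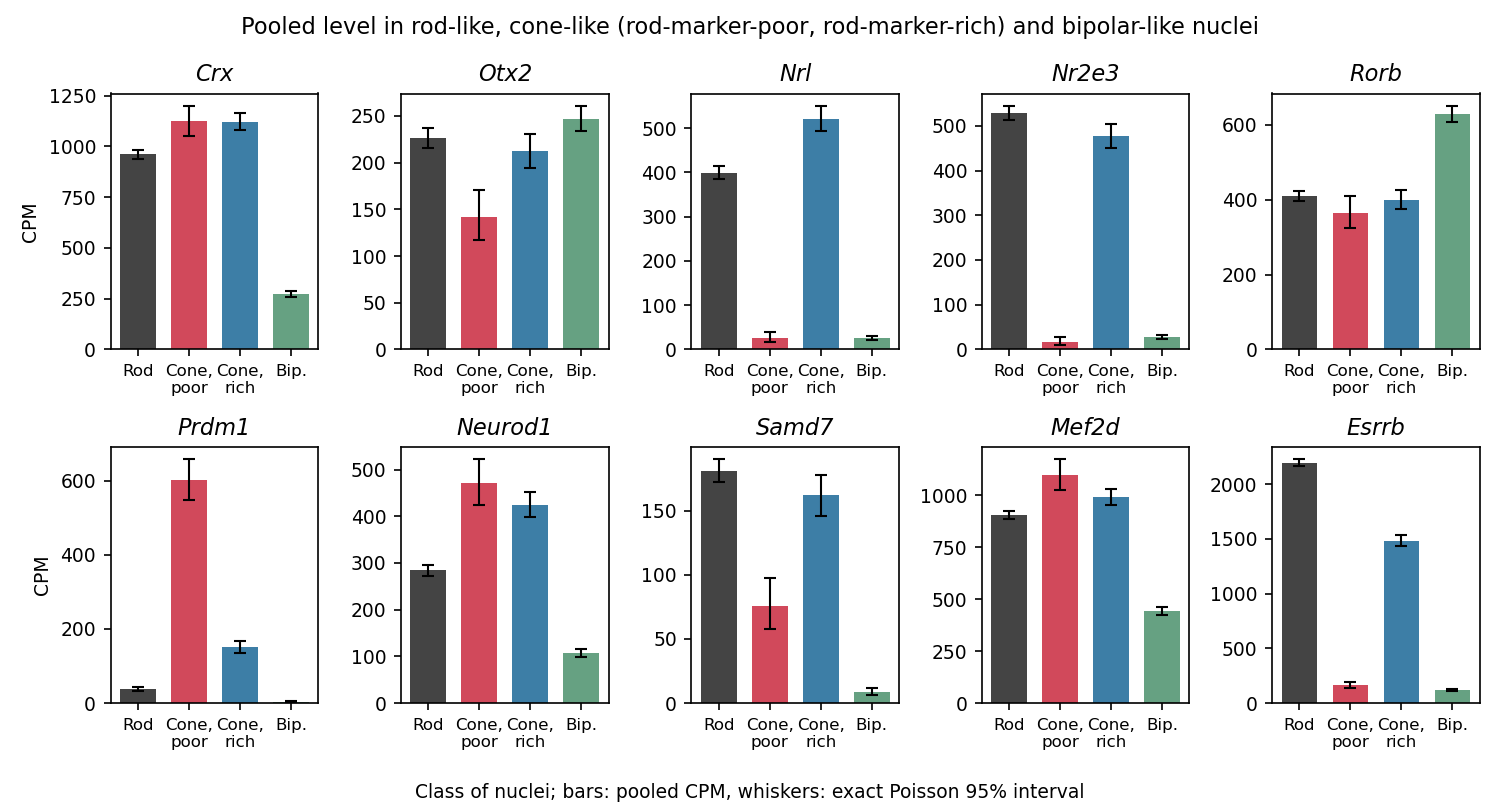
Pooled CPM (bars, from 0) with exact Poisson 95% intervals (whiskers) for each gene in rod-like, rod-marker-poor cone-like, rod-marker-rich cone-like and bipolar-like nuclei. Nrl, Nr2e3 and Esrrb are at 25.6, 16.7 and 163 CPM in rod-marker-poor cones and at 522, 477 and 1482 CPM in rod-marker-rich ones, while Crx is at 1124 and 1121 CPM.

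Outside photoreceptors, Nrl, Nr2e3, Samd7 and Esrrb lay near the proportion of the rod markers in several classes. The 12 rod markers summed to 30383 CPM in rod-like nuclei and, over the other classes, to at most 2411 CPM (vascular endothelium-like nuclei, 7.94% of the rod-like level) and at least 363 CPM (ganglion cells). In vascular endothelium-like nuclei those 4 genes stood at 8.86, 8.18, 8.18 and 8.30% of their rod-like levels. In amacrine-like nuclei, where the rod markers stood at 2.93%, the same genes stood at 3.39, 3.20, 3.33 and 2.96%. In ganglion cell-like nuclei they stood at 1.84, 1.22, 1.30 and 1.21%, or 1.54, 1.02, 1.09 and 1.01 times the proportion of the rod markers. In RPE-like nuclei the 4 stood lower than the rod markers, at 0.339 to 0.536 times their proportion, and in the 54 horizontal-like nuclei Esrrb stood at 5.20 times (65 UMIs) and Nrl at 3.07 times (7 UMIs). How much of these low levels is RNA carried over from rods was not tested.

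Crx, Otx2, Neurod1, Rorb and Mef2d stood at 4.40 times that proportion or more in bipolar-like nuclei, and Otx2, Rorb and Mef2d at 2.61 times or more in RPE-like nuclei. In bipolar-like nuclei the rod markers were at 6.43% of their rod-like level, Crx at 28.3%, Neurod1 at 37.7%, Mef2d at 48.9%, Otx2 at 109% and Rorb at 153%, while Nrl was at 6.60%, Nr2e3 at 5.26%, Samd7 at 4.87% and Esrrb at 5.53%. In RPE-like nuclei the rod markers were at 5.76% and Otx2 at 260.4%, Rorb at 77.5%, Crx at 2.69% and Neurod1 at 2.22%. Crx in vascular endothelium-like (8.61%), Müller glia-like (4.64% beside 4.01%) and lens-like nuclei (4.60% beside 4.45%) stayed near the rod markers. It stood at 3.29 times their proportion in horizontal-like nuclei (18 UMIs) and at 1.93 times in surface epithelium-like nuclei (19 UMIs). Mef2d was at 15.0% of its rod-like level in RPE-like nuclei and at 36.7% in vascular endothelium-like nuclei.

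**Figure D4:**
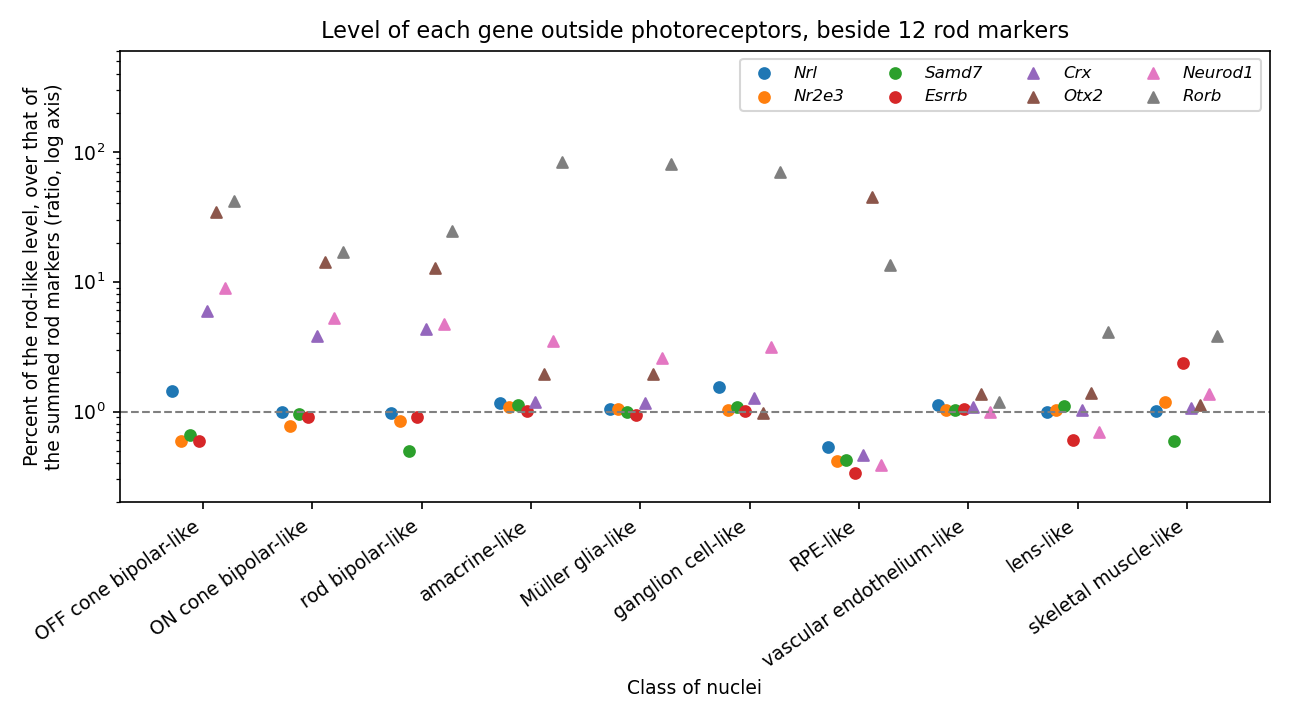
For 8 genes, the percent of the rod-like level in a class divided by the same percent for the sum of 12 rod markers, in 7 classes and 3 bipolar types (log axis; the dashed line at 1 is the rod markers' own proportion). Circles (Nrl, Nr2e3, Samd7, Esrrb) lie between 0.339 and 2.36, the latter for Esrrb in skeletal muscle-like nuclei. Triangles (Crx, Otx2, Neurod1, Rorb) reach 83.0 for Rorb in amacrine-like nuclei. Horizontal-like nuclei, with Esrrb at 5.20, Nrl at 3.07 and Rorb at 277, are not drawn.

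Bipolar-like clusters were also sorted into types by markers. Cluster 31 (169 nuclei), scoring 0.406 for ON cone and 0.303 for OFF cone types, was given no type and is left out here. The OFF cone type thus rests on cluster 34 alone. Among the named types, Crx was lower in OFF cone bipolar-like cells, which answer to light decrements, than in ON types. OFF cone bipolar-like nuclei (357) held 164 CPM (144 to 186), ON cone bipolar-like nuclei (589) 331 CPM (304 to 359) and rod bipolar-like nuclei (471) 314 CPM (288 to 343). The ON over OFF ratio was 2.01 (1.73 to 2.35), and that of ON cone over rod bipolar-like nuclei 1.05 (0.932 to 1.19). The rod markers moved with the types too, at 879, 2718 and 2298 CPM in the same order. Relative to rod-like nuclei, Crx stood at 17.1, 34.4 and 32.7% and the rod markers at 2.89, 8.95 and 7.56%. The part of the rod markers in the difference was not tested.

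Otx2 varied less among the types, at 225 CPM (201 to 251) in OFF cone, 285 CPM (260 to 311) in ON cone and 219 CPM (197 to 243) in rod bipolar-like nuclei. Rorb was highest in rod bipolar-like nuclei, at 756 CPM (714 to 799), followed by ON cone (615 CPM) and OFF cone types (499 CPM). Mef2d was at 554 CPM (519.6 to 590.2) in ON cone, 379 CPM in rod bipolar-like and 367 CPM in OFF cone types. Prdm1, with 0 UMIs in OFF cone bipolar-like nuclei (0 of 357 nuclei; the upper bound is 2.55 CPM), and Nrl and Nr2e3, at up to 36.9 CPM in any type, were low. A cluster of 411 nuclei with a median of 8091 UMIs, with the bipolar genes Pcp2 and Trpm1 among its leading genes, stayed unnamed because its Müller marker score was more than 0.5 of its bipolar one. It held Crx at 161 CPM, Otx2 at 157 CPM, Rorb at 901 CPM and Nrl at 12.9 CPM, and is in no class above.

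Levels in rod-like nuclei were next set side by side by piece, in the retinal band around the RPE ring. Nrl stood at 499.8 CPM (462 to 540.4) in piece 1, 313 CPM (283 to 345) in piece 2, 254 CPM (221 to 290.3) in piece 3 and 478 CPM (445 to 513) in piece 4. Pieces 1 and 4 were thus high and pieces 2 and 3 low, with intervals that did not overlap between the pairs. Crx followed the same split at 1081, 808, 840.1 and 1020.4 CPM. Nr2e3 was highest in piece 1, at 649, 454, 443 and 515 CPM. The interval of piece 4 overlapped those of pieces 2 and 3. Rorb was lowest in piece 2, at 469, 302, 407 and 488 CPM. Samd7 was lower in pieces 1 and 4, at 151, 214, 224 and 154 CPM.

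Otx2 (210 to 239.8 CPM), Neurod1 (269 to 307 CPM), Mef2d (794 to 936 CPM) and Esrrb (2014 to 2388 CPM) differed by at most 1.19 times between pieces. By the rule of 2 times with intervals that do not overlap, 0 of the 10 genes differed between pieces over all rod-like nuclei, against 5.07% of 11469 features. In the band 1 did, Prdm1, at 47.7, 24.4, 21.4 and 41.6 CPM (60, 31, 18 and 67 UMIs), against 7.09% of 10383 features. That call was lost after thinning to 500 UMIs, at 35.1, 23.9, 28.6 and 44.0 CPM, and without rod-like cluster 0, at 43.4, 28.0, 21.4 and 44.0 CPM. Of the rod markers, Gnat1, rod transducin, was high where Nrl was, at 3329, 2660.2, 2263 and 3282 CPM in the band, while Sag, rod arrestin, was low there, at 6168, 8369, 7452 and 6109 CPM. The median UMIs per rod-like nucleus there went the opposite way to Nrl, at 913, 1269, 1304 and 991. After thinning to 500 UMIs Nrl stood at 439, 321, 289.8 and 465 CPM and Crx at 1155, 785, 820.4 and 1021 CPM. Without rod-like cluster 0, the rod cluster with the highest Nrl level, Nrl in the band was at 488, 300.1, 243 and 457 CPM.

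In rod-like nuclei more than 300 units outside the ring, the ratio of the highest to the lowest piece was smaller than in the band for 9 of the 10 genes. Otx2 was the exception, at 1.30 outside the ring and 1.14 in the band. Outside the ring Nrl was at 371, 374, 396 and 358 CPM in pieces 1 to 4 (184, 557, 320 and 496 nuclei) and Crx at 1075, 918, 921 and 909 CPM. Gnat1 was at 2594, 2801, 2462 and 2291 CPM. Xist in them was at 260.4, 168, 241 and 281 CPM. The pieces have no label, so origin and handling cannot be told apart.

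**Figure D5:**
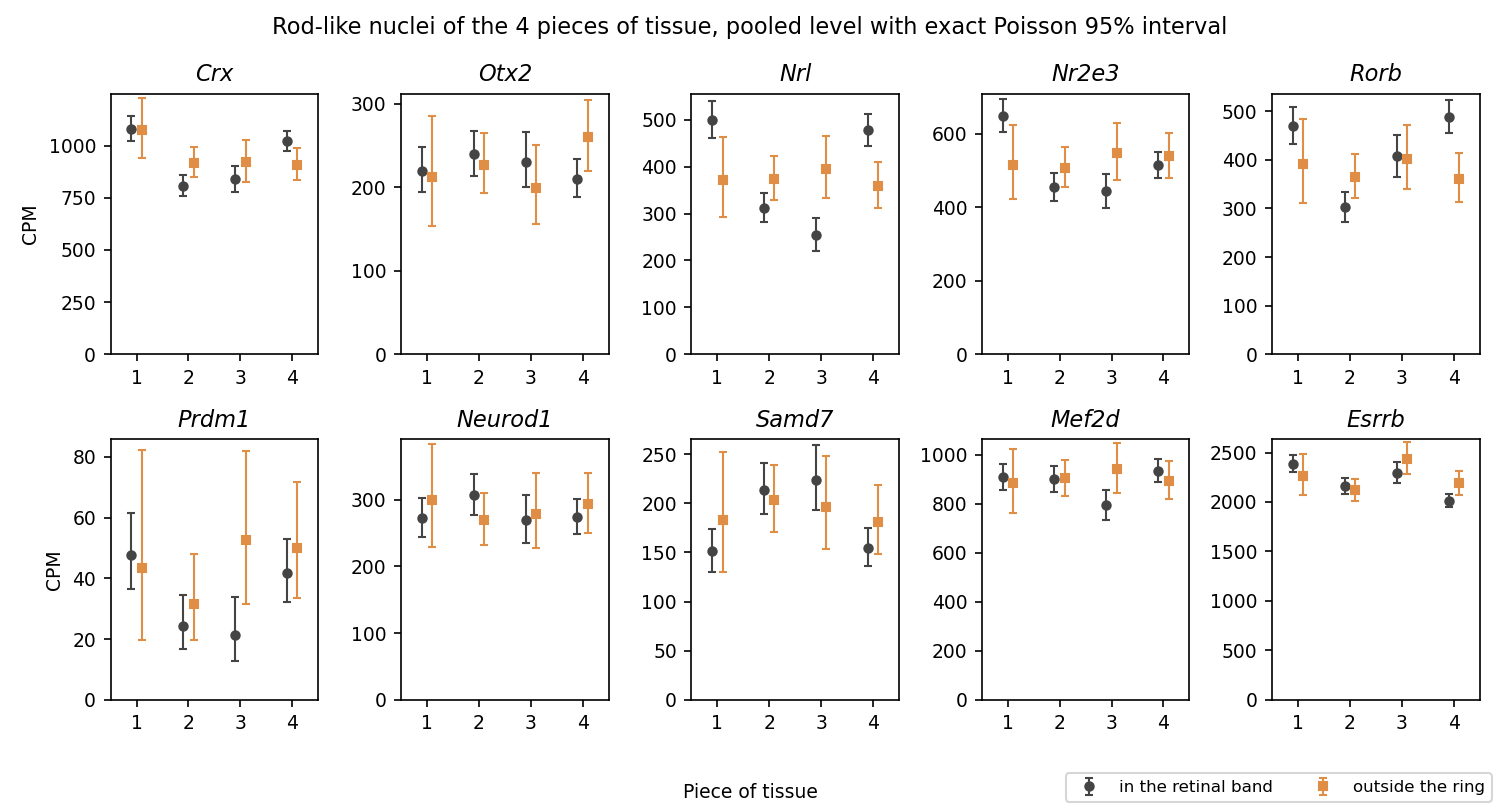
Pooled CPM with exact Poisson 95% intervals in rod-like nuclei of the 4 pieces, in the retinal band (circles) and outside the ring (squares), with axes from 0. Nrl in the band is at 499.8 and 478 CPM in pieces 1 and 4 and at 313 and 254 CPM in pieces 2 and 3, while outside the ring it lies between 358 and 396 CPM.

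The 5 rod-like clusters were closer to each other in Crx and Nr2e3 than in Nrl. Nrl ranged from 358 CPM (407 nuclei of cluster 5) to 490.1 CPM (1098 nuclei of cluster 0), Crx from 934 to 983 CPM, Otx2 from 201 to 279.9 CPM and Nr2e3 from 497 to 542 CPM. A rod-like nucleus had UMIs of a median of 4 of the 10 genes, and 2.28% had none. After thinning to 500 UMIs the mean number was 2.24 in rod-like, 1.62 in rod-marker-poor cone-like, 0.783 in bipolar-like, 0.495 in RPE-like and 0.545 in amacrine-like nuclei.

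Genes of like pattern were ranked for each of the 10 by Pearson's r over 18 classes on log2(CPM + 10), with the rod-marker-poor cones as the cone class. For Crx they were Rd3 (0.977), Slc1a7 and Cacna1f. Nr2e3 had Kcnj14 (0.986) and Pde6b, the latter a rod marker, and Nrl had A930006I01Rik (0.952), Pde6a and Pde6b. Otx2 was nearest to Otx2os1 (0.968), its opposite-strand neighbour, then to Sv2b (0.880) and Abca4. Samd7 was nearest to Rdh12 (0.982), Fabp12 and Kcnv2, Esrrb to E130310I04Rik (0.936), Gm48505 and Nrl, and Prdm1 to Ddx11 (0.951), Eif1a and Znrd1. Neurod1 had Crx (0.957) as its nearest, then Gm14344 and Smim40. Rorb (Abhd8, 0.876) and Mef2d (Ankrd33b, 0.914) had lower values at the top. The classes come from 1 library, so these are descriptions.

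Partners and cofactors of photoreceptor transcription were read in the same way, from a list of 39 of which 38 were measured. With all cone-like nuclei as the cone class, 1 was higher in rods and 3 in cones, against 2.89% and 7.85% of features. Of the 33 with 20 UMIs in rod-like and rod-marker-poor cone-like nuclei together, 5 were higher in the former and 6 in the latter, against 8.57% and 10.8% of features. This cone subset was cut on rod markers, so such counts, here and in the lists below, are not independent of the cut. The median log2 ratio of the 33 was 0.10. Over all 11873 features so tested the median was 0.08, and over the 10 genes themselves 0.42. Samd11, a partner of Samd7, stood at 545 CPM in rod-like and 38.5 CPM in these cones, and Mef2c, a relative of Mef2d, stood at 485 CPM in rod-like nuclei, 9.69 times (7.08 to 13.7) its cone level. Cone regulators stood apart in the other direction: the retinoid X receptor Rxrg at 0.479 and 149 CPM, and the zinc-finger protein Sall3 at 0.719 and 127 CPM. Rora, a relative of Rorb, was at 738 and 2821 CPM. It was higher still in Müller glia-like (7469.5 CPM), RPE-like (7258 CPM) and bipolar-like nuclei (6671 CPM). Neurod4, a relative of Neurod1, was class-high in bipolar-like nuclei, at 211 CPM. The thyroid receptor Thrb, a cone regulator named here after its values were seen, was at 1849 CPM in rod-like and 2227 CPM in these cones.

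Rod genes that Crx and Nrl are known to bind or activate, and that were not class markers, were measured in 30 of 30 cases, and 29 were highest in a photoreceptor class, against 15.0% of features. With all cone-like nuclei as the cone class, 0 were higher in rods and 3 in cones, against 2.89% and 7.85% of features. Of the 30, 8 were higher in rods than in rod-marker-poor cones and 2 the other way, against 8.57% and 10.8% of features, with a median log2 ratio of 0.66. The rod-marker-poor cones were cut on rod markers, so low levels of rod genes in them are not independent of the cut. Gucy2f, a guanylate cyclase, stood at 811 and 11.5 CPM, Guca1b, its activator, at 609 and 46.1 CPM, Fscn2, an actin-bundling protein, at 117 and 12.8 CPM and Rp1, of the photoreceptor cilium, at 1365 and 347 CPM. Prph2, which carries C213Y in the mutant mice of the design, stood at 2258 and 770.4 CPM, a ratio of 2.93 (2.70 to 3.18). In all cone-like nuclei, however, Prph2 stood at 2491 CPM, above its rod-like level. The 2 that were higher in rod-marker-poor cones than in rods were Rbp3, at 1000.1 and 2415 CPM, and the immediate early factor Nr4a1, at 14.5 and 167 CPM.

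A list of 19 cone genes held Cnga1 and Pde6b, which are among the 12 rod markers that set the cut and are left out here. Of the other 17, 16 were measured, and 15 had 20 UMIs in both classes together. With all cone-like nuclei as the cone class, 7 were higher in cones and 0 in rods, against 7.85% and 2.89% of features. Among the 15, 7 were higher in rod-marker-poor cones than in rods and 2 the other way, against 10.8% and 8.57% of features, with a median log2 rod over cone ratio of -1.33. Slc24a2, a cone cation exchanger, stood at 13.1 CPM in rods and 1834 CPM in these cones, Ccdc136 at 6.11 and 1596 CPM and Otop3 at 0.360 and 147 CPM. Gnb1, a transducin subunit that the list counts with the cone genes, was higher in rods, at 2748 and 142 CPM. It is part of these counts and of the median. Factors of other retinal and RPE classes, 30 measured, held 6 class-high genes, against 10.4% of features, 0 of them in photoreceptor-like nuclei. Among them were Lhx3 in bipolar-like (49.6 CPM), Lhx2 in Müller glia-like (334 CPM), Tfap2d in ganglion cell-like (60.3 CPM), Ikzf1 in microglia or macrophage-like (535 CPM) and Otx1 in surface epithelium-like nuclei (56.4 CPM). Of the 14 with 20 UMIs in rods and rod-marker-poor cones together, 1 was higher in rods and 5 in these cones, against 8.57% and 10.8% of features, with a median log2 ratio of -0.14.

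Neighbours that could share reads with the 10 genes were checked, since no source used here gives the strand setting of the counting. Otx2os1, on the strand opposite Otx2, stood at 1559.8 CPM in rod-like, 2151 CPM in RPE-like and 3344 CPM in bipolar-like nuclei. Its highest class of these was bipolar-like, while that of Otx2 was RPE-like. Crxos, opposite Crx, stood at 278 CPM in rod-like and 24.0 CPM in bipolar-like nuclei. RefSeq spans overlap for Nr2e3 and Gm7616 (56.0 CPM in rod-like nuclei) and for Mef2d and 1700113A16Rik (1.32 CPM). The share of reads that may have been counted for the wrong partner was not tested.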

How the data were processed

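The authors deposited raw UMI counts per gene and nucleus of 1 spatial single-nucleus library, and X and Y places on the chip for each barcode in units that the sources used here do not define, which is another kind of value. Of tools and builds, mm10, Seurat 4.1.1, STAR and fastp appear in the submitters' processing notes, with no role or order given. The second, position library of T1 was used only through those places.

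Nuclei with under 200 genes (328) or at least 10% mitochondrial UMIs (97) were left out. Counts were scaled to 10000 per nucleus, and 2000 variable genes without the 10 genes studied (1 of which, Prdm1, would have been among them) gave 30 components, 15 neighbours and Leiden clusters at resolution 1 (scanpy 1.11.5, Python 3.11.15). A cluster was named where its best marker score was at least 0.25, the next at most 0.5 of it, and at least 3 markers were detected. Scrublet marked 0 nuclei (a count of 0 allows up to 0.0178%), so doublets were not removed. Levels were pooled CPM with exact Poisson 95% intervals, shares had Clopper-Pearson intervals, ratios exact binomial ones, and all cover counting error only. With 1 library and no labelled groups no test over samples was possible, and no p-value is given. The rules were tested on simulated data. Those counts had counting error only, drawn from a profile shared by all classes, so the simulation does not cover mixed nuclei or carried-over RNA.

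The 10 genes and the gene lists were chosen with earlier results of these data known, and the naming thresholds, the 1% cone cut, the pieces and the band (150 units outside to 1200 units inside the RPE ring) after seeing the data. Named genes were the 10 genes, the 3 of highest correlation with each (at least 200 UMIs), at most 6 past a rule in each further list, and neighbours that overlap. Some named genes are not reported here.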

Additional observations from a re-analysis of the deposited data

How the results depend on the processing

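No paired analysis was possible because the library belongs to no labelled group and has no labelled replicate. Of the 10 genes, 7 to 8 were highest in a photoreceptor class, and 1 (Prdm1) was at least 2 times higher in cone-like than rod-like nuclei, under every alternative run. The class-high count, 1 as reported, was 3 with at least 500 genes per nucleus, 3 at resolution 0.5, 4 at resolution 2, 3 with the 10 genes kept for clustering, 2 after thinning to 500 UMIs (Nr2e3 and Esrrb, with Otx2 no longer called), 4 for the mean over nuclei, 0 at 3 times in place of 2, and 4 with rod-marker-poor cones. Leaving out each piece in turn gave 1 to 2, with 2 without piece 3. The count higher in rods than cones, 0 as reported, was 2 with at least 500 genes, 2 at resolution 0.5, 3 at resolution 2, 2 with the 10 genes kept, 2 after thinning, 2 for the mean over nuclei and 4 with rod-marker-poor cones. Leaving out each piece gave 0 to 1, with 1 without piece 4. The count apart between pieces, 0 as reported, was 1 with at least 500 genes and 1 in the band. The cause of these moves was not tested. Of 74 counts in all, 45 were equal to those reported, 10 differed by up to 1.5 times (all of them 8 in place of 7 highest in a photoreceptor class), and 19 differed by more. Of 560 levels, 394 stayed within their interval and 166 moved, 64 of them in cone-like nuclei. The band and the rod-marker-poor cones were added after seeing the data. Depth limits Nrl and Nr2e3 in rod-marker-poor cones (20 and 13 UMIs).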
